A study of Homo sapiens with 10 samples.

Results

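The regions described here carried a methylated-DNA peak in K-KD and K rep KO cells and had none in K non-rep KO, EV or WT cells. There were 2395 of them among 144156 merged regions, or 1.66% (Wilson 95% interval 1.60% to 1.73%). Peaks on chromosomes 1 to 22 and X were pooled over the 5 peak lists, and peaks that overlapped by 1 bp or more were merged into a region. The members were chosen on these same peak calls, so their presence in 2 lists and absence from 3 is a description of the choice and not a finding.

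DNA methylation had been profiled in HEK293T cells, a human embryonic kidney line, by MeDIP-seq, in which an antibody against 5-methylcytosine captures sonicated genomic DNA. K-KD is the list of the KD sample, which the series describes as a knockdown of KCNQ1OT1_K, and 2 knockouts are named K rep KO or K non-rep KO. EV and WT are the conditions without a knockdown or knockout in their names. The labels expand none of EV, K, rep and non-rep, and they do not say whether a knockout line was 1 clone. Each condition had 1 immunoprecipitated and 1 input library and 1 deposited peak list, so no value below has a replicate and no p-value is given. Intervals cover counting error only, and neighbouring peaks are not independent.

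KCNQ1OT1 is a long non-coding RNA read from the opposite strand of KCNQ1, in an imprinted domain of chromosome 11, where it acts in cis to silence neighbouring genes on the paternal copy. In mammalian genomes DNA methylation lies mainly at cytosines followed by guanine (CG). Bodies of transcribed genes and repeats are usually methylated, whereas CG-dense gene starts usually are not. A MeDIP peak marks a stretch where captured fragments outnumber the background, and a stretch with no peak fell under the caller's threshold and is not shown to be unmethylated. Peak lists do not measure RNA, so the knockdown itself could not be checked.

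The sequence around some members can be read at gene starts. In all, 46 members overlapped a window reaching from 250 bases before to 50 bases after a RefSeq start site (GRCh38.p14), and 28 of these lay at a protein-coding gene. The 6 windows printed here were taken, after their values were seen, from the 20 such members with the highest smaller fold enrichment, to show CG-richer and CG-poorer gene starts and 1 region far from other peaks. They are read 5′ to 3′ on the strand of the gene, with every CG in capitals.
ZNF232, chr17:5116399-5116698, minus strand: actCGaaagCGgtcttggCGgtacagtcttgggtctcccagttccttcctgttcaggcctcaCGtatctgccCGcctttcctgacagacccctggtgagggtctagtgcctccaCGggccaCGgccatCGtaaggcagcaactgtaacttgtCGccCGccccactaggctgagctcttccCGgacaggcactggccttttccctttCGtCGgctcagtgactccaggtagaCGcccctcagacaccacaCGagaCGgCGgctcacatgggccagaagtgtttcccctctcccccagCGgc
DDX43, chr6:73394578-73394877, plus strand: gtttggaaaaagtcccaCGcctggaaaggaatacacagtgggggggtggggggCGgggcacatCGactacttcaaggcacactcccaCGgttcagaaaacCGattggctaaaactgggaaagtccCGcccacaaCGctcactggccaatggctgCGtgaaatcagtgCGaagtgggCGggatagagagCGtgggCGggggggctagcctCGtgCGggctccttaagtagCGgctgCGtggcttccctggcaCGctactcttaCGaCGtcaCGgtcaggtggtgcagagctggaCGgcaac
ARMCX4, chrX:101418028-101418327, plus strand: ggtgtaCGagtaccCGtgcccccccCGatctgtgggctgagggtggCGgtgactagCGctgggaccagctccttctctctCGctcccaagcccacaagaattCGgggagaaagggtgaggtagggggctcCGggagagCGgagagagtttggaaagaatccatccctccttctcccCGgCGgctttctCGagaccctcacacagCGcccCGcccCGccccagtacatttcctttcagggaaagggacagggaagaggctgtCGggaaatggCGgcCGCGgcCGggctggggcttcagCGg
BDNF, chr11:27721981-27722280, minus strand: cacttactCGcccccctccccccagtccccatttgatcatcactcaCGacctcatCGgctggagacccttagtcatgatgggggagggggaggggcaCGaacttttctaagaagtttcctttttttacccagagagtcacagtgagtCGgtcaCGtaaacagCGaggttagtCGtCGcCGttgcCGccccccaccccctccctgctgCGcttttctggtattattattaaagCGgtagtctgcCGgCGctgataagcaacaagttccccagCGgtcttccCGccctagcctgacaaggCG
RCAN1, chr21:34525418-34525717, minus strand: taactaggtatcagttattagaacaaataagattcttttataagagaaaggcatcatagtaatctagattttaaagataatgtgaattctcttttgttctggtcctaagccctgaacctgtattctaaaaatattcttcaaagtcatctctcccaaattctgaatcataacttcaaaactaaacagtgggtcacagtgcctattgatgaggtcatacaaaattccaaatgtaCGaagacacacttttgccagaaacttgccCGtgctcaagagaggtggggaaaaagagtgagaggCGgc
BECN2, chr1:241957517-241957816, plus strand: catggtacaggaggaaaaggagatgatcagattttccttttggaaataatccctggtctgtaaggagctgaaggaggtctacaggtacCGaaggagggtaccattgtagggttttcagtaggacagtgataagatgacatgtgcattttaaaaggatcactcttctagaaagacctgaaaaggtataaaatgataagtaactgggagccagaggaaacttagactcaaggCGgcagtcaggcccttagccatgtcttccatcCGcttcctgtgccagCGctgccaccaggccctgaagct

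ZNF232 encodes a zinc finger protein, and its window held 18 CG. The member over it, chr17:5116336-5116893, covered all 300 bases of the window. Its fold enrichment, the authors' ratio of signal to background at the summit, was 5.99 in K-KD and 5.80 in K rep KO. This was the highest smaller value of the 2 lists among members at gene starts. DDX43, a DEAD-box RNA helicase known as a cancer-testis antigen, had 21 CG in its window and fold enrichments of 5.13 in K-KD and 5.35 in K rep KO. ARMCX4, an X-linked gene of the armadillo-repeat family, also had 21 CG, with 5.06 in K-KD and 4.88 in K rep KO. Such CG counts are common at gene starts, since 39.6% of all 34961 windows held 21 CG or more.

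BDNF, the gene of brain-derived neurotrophic factor, had 18 CG in the window covered by chr11:27721818-27722423. Its fold enrichment was 4.31 in K-KD and 4.02 in K rep KO, and the nearest K non-rep KO, EV or WT peak lay 216 kb away. Among the CG-poorer windows, that of RCAN1, an inhibitor of calcineurin, held 3 CG and that of BECN2, a beclin family gene, held 4. The RCAN1 member had fold enrichments of 4.28 in K-KD and 3.92 in K rep KO, and the BECN2 member 3.89 in K-KD and 4.72 in K rep KO. The BECN2 and BDNF members covered the whole printed window, the DDX43 member 222 of its 300 bases, the ARMCX4 member 114 and the RCAN1 member 63. The CG count describes the window, most of which lies outside the region at RCAN1 and ARMCX4.

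Among the 20 start-site members with the highest smaller fold enrichment, the other protein-coding genes were ELAVL2 (a neuronal RNA-binding protein), LAT and LAX1 (adaptor proteins of lymphocyte signalling), STAB1 (a scavenger receptor), F2RL3 (a thrombin receptor), PMEPA1, SBK3 and PRR20B. PRR20B is a multicopy gene whose copies differ little, so reads there may come from another copy. Across all 52 start-site windows with a member the median was 11.5 CG, against 14 CG over the 2527 windows that overlapped any merged region and 14 CG over all windows. Windows with 20 or more CG made up 25% of the member windows, 29.6% of the windows with any region and 41.2% of all windows. The windows of K-KD plus K non-rep KO had a median of 14 CG and 25% with 20 or more, and those of both knockouts 12 CG and 26.1%. The start-site table used here has no windows for 1 of the 23 chromosomes, and shares and distances at start sites cover the other chromosomes. There, 1.98% of members and 1.57% of all merged regions overlapped a start-site window. The share was 2.36% for K-KD plus K non-rep KO and 1.54% for both knockouts, so the members lay between these pairs.

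In both lists the member peaks were modest. The median fold enrichment of the members' 2401 K-KD peaks was 3.99, with the middle 50% between 3.45 and 4.71, against 4.18 over the whole K-KD list. For their 2406 K rep KO peaks the median was 4.07, with the middle 50% between 3.49 and 4.84, against 4.39 over the whole K rep KO list. Peaks found in 1 list alone had medians of 3.92 in K-KD and 4.02 in K rep KO. Regions present in all 5 lists had medians of 4.51 in K-KD and 5.52 in K rep KO. Member peaks thus lay closer to those found in 1 list alone than to those shared by all lists. These values describe the choice, because a region with a strong peak in a further list could not be a member.

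**Figure D1:**
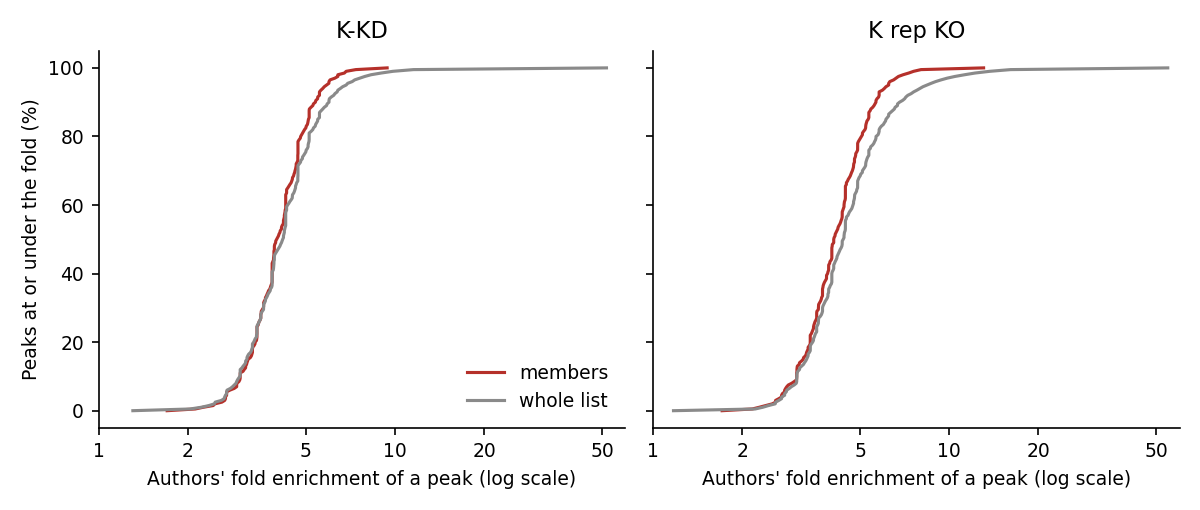
Cumulative distribution of the authors' fold enrichment (x axis, ratio, log scale) for peaks of the member regions and for the whole list, in K-KD (left) and K rep KO (right), with the percentage of peaks at or under each fold on the y axis. The curves are close up to the medians of 3.99 (members) and 4.18 (whole list) in K-KD and of 4.07 and 4.39 in K rep KO, and the members end at 9.41 in K-KD and 13.1 in K rep KO, where the whole lists go on to 51.8 and 54.7.

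The authors' −log10 q showed the same. Its median was 3.43 in K-KD and 3.71 in K rep KO for the members, against 3.70 and 4.43 over the whole lists. Only 178 members (7.43%) had a −log10 q of 5 or more in both lists, and 13 reached 10 in both, whereas 44 stayed under 2 in both. The number of fragments at the summit, solved from the fold enrichment and the −log10 p, had a median of 11 in K-KD and 10 in K rep KO, and the lowest was 6 in each. With so few fragments, counting error is large at these summits. The number of fragments in the lists that lack a region was not measured.

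The member peaks' summits lay a median of 127 bp apart (95% interval of the median 117 to 134 bp), and 1034 members (43.2%) had summits within 100 bp. The rule required the peaks to overlap, and their median widths were 437 bp in K-KD and 430 bp in K rep KO, so the summits had to lie near each other and the distance is a description. In regions present in all 5 lists the K-KD and K rep KO summits lay a median of 114 bp apart. In the other combinations of lists with both K-KD and K rep KO the median ran between 136 and 174 bp. Those regions were wider, and where one held several peaks of a list the smallest distance was taken. Their K-KD and K rep KO peaks need not overlap, so these medians are not like for like with that of the members. The K-KD and K rep KO peaks of members overlapped by a median of 318 bp, and in 1619 members (67.6%) the overlap made up at least 50% of both. In 52 members the overlap was under 50 bp, and the smallest was 2 bp.

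Fold enrichments of the 2 lists were only loosely related over members, with Pearson's r of 0.21 on the log2 scale and Spearman's rho of 0.17 over 2395 regions. Regions present in all 5 lists had a rho of 0.39. The points share the genome's base composition and the same pair of libraries, and both values were bounded by the choice of members. K rep KO had the higher fold enrichment in 1276 members (53.3%). Members were short, with a median width of 602 bp (middle 50% 469 to 787 bp, range 301 to 3223 bp), and 2378 of them were made of 1 peak of each list. Together they covered 1629.6 kb.

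Among regions with a K-KD peak and none in K non-rep KO, EV or WT, 14.3% of 16729 also had a K rep KO peak. Seen from the other side, 13.8% of the 17415 regions with a K rep KO peak and none in K non-rep KO, EV or WT also had one in K-KD. Without regard to the remaining knockout, 3327 regions absent from EV and WT had peaks in both K-KD and K rep KO, 17.0% of such K-KD regions and 16.1% of such K rep KO regions. K-KD shared 2812 with K non-rep KO, 14.4% of the K-KD regions and 15.3% of the K non-rep KO regions. The knockouts shared 3258, 15.8% of the K rep KO regions and 17.7% of the K non-rep KO regions. All of these comparisons rest on the same EV and WT lists.

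Held to exactly 2 lists, the members numbered 2395, against 1880 regions found only in K-KD plus K non-rep KO and 2326 found only in both knockouts. When every list was cut by −log10 q to the length of the shortest, these counts were 1373, 1304 and 1260. Of those 1373 regions, 533 were members with the full lists and 840 were not, so the size of the set and its makeup both changed with this cut. The cut shortens the lists and drops their weaker peaks at once. The lists held 53919 peaks in K-KD, 59098 in K rep KO, 53396 in K non-rep KO, 87815 in EV and 30732 in WT, with EV the longest and WT the shortest list.

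**Figure D2:**
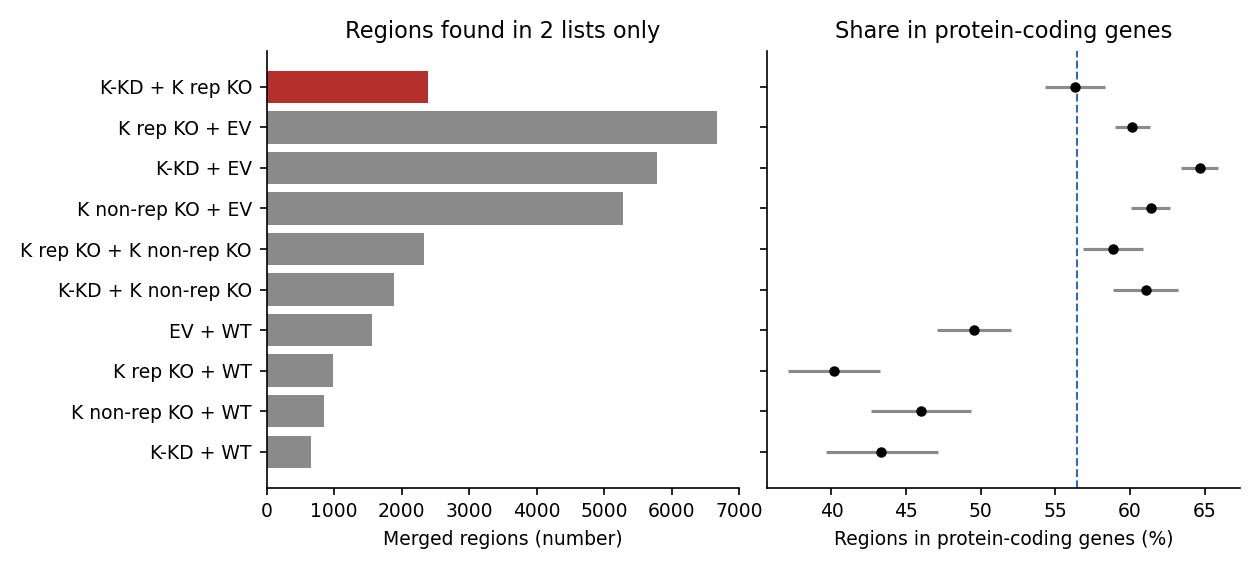
Left, the number of merged regions found in exactly 2 of the 5 lists, for each pair, with the members in red; right, the percentage of each set inside protein-coding genes, with Wilson 95% intervals as bars and all merged regions (56.5%) as a dashed line. The 2395 members are fewer than the pairs with EV that include K-KD, K rep KO or K non-rep KO, and their share of 56.3% in protein-coding genes lies on the dashed line.

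By position in genes the members resembled the merged regions as a whole. In all, 1349 of them (56.3%, Wilson 95% interval 54.3% to 58.3%) overlapped the body of a protein-coding gene, against 56.5% of all merged regions. A further 187 (7.81%) lay in long non-coding RNA genes only, against 7.37% of all regions, and 796 (33.2%) lay in no listed gene, against 33.9%. The regions of K-KD plus K non-rep KO had 61.1% in protein-coding genes (58.8% to 63.2%) and those of both knockouts 58.9% (56.8% to 60.8%). Regions present in all 5 lists had 41.1%, a share below the interval of the members. Of the 1102 members that could be placed along a coding gene, 32.4% lay in the third of the gene nearest its start and 36.7% in the third nearest its end, against 32.4% and 35.6% of all such regions. The median distance to a start site was 21.7 kb for members and 22.1 kb for all regions.

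Members often had a peak of a list that lacked them close by. The nearest K non-rep KO, EV or WT peak lay a median of 2.32 kb away, and for 719 members (30.0%) it lay within 1 kb. EV held that nearest peak for 1464 members, K non-rep KO for 657 and WT for 282. Only 416 members (17.4%, Wilson 95% interval 15.9% to 18.9%) had no such peak within 10 kb, and 32 had none within 100 kb. With lists cut by −log10 q to the same length the share without a peak within 10 kb was 28.0%. That cut also dropped weaker peaks, and 840 of its 1373 regions were not members with the full lists. The part of list length alone was not tested. Measured in the same way, 18.5% (16.8% to 20.3%) of the regions of K-KD plus K non-rep KO and 19.3% (17.8% to 21.0%) of those of both knockouts had none within 10 kb. The members' interval overlapped both of these.

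**Figure D3:**
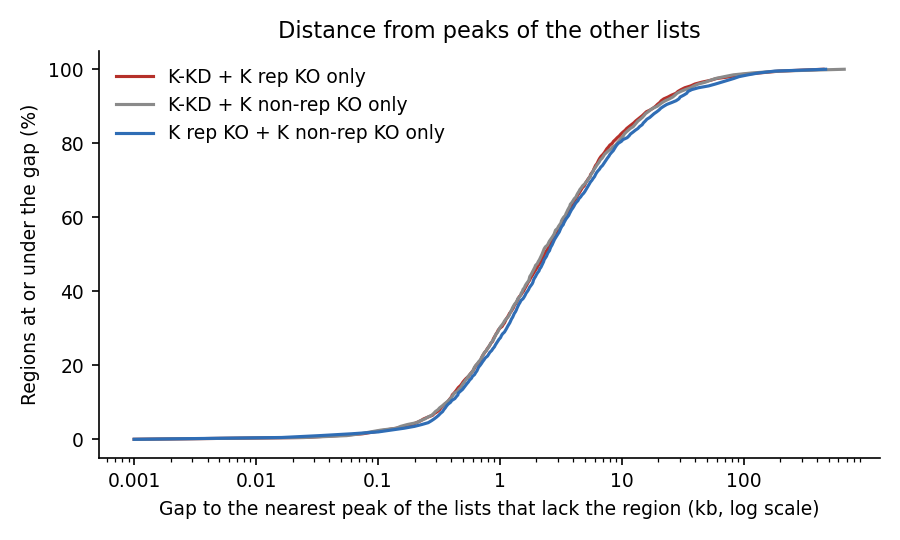
Gap from each region to the nearest peak of the 3 lists that lack it (x axis, kb, log scale, gaps under 1 bp drawn at 1 bp), as the percentage of regions at or under that gap (y axis), for the members and for both other pairs without EV and WT. The 3 curves run together, with medians of 2.32 kb for the members, 2.22 kb for K-KD plus K non-rep KO and 2.45 kb for both knockouts.

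Isolated members had slightly higher fold enrichments. Those with a gap over 10 kb had medians of 4.28 in K-KD and 4.35 in K rep KO, against 3.91 and 4.02 for members with a gap of 1 kb or less. No interval was computed for these medians, so the difference is a description. The isolated members were also narrower, with a median width of 534.5 bp against 638 bp. Their share in protein-coding genes was 52.6% (47.8% to 57.4%), against 57.2% (53.5% to 60.7%) for members with a gap of 1 kb or less, and these intervals overlapped. At the edge of the rule, the 3 members closest to another list's peak had gaps of 0, 1 and 2 bp, and the 3 closest regions left out overlapped another list's peak by 8, 14 and 15 bp. There were 27 members with a gap of 50 bp or less, and 13 regions were left out for an overlap of 50 bp or less.

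The members were spread over all 23 chromosomes, and 19 chromosomes had intervals that included the 1.66% of the whole. Chromosome 22 had the highest share, 138 of 5781 regions or 2.39% (2.02% to 2.81%), and chromosome 7 had 182 of 9147 or 1.99% (1.72% to 2.30%). Chromosome 22 also had high shares of the other pairs, 1.75% against 1.30% overall for K-KD plus K non-rep KO and 2.61% against 1.61% for both knockouts. On chromosome 7 these pairs had 1.32% and 1.48%. Neighbouring 1 Mb windows at its centromere held 19 and 18 of the 182 members of chromosome 7. At the low end were chromosome 18 with 9 of 2040 regions, 0.441% (0.232% to 0.836%), and chromosome 11 with 52 of 5862, 0.887% (0.677% to 1.16%).

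On both low chromosomes the lists themselves were out of the ordinary. On chromosome 18, WT had a peak in 47.6% of the merged regions, against 20.3% over the genome. The other lists were above their genome shares there too. K non-rep KO had 48.4% against 35.3%, and EV 62.6% against 59.0%. K rep KO had 51.5% against 39.2%, and K-KD 40.5% against 35.6%. The rule leaves out every region with a WT, EV or K non-rep KO peak. Both other pairs also need the absence of WT and EV. The regions of K-KD plus K non-rep KO took 0.441% of chromosome 18, as the members did, against 1.30% over the genome. Those of both knockouts took 1.23%, against 1.61% over the genome. Which list's peaks had a part in the low share of chromosome 18 was not tested. On chromosome 11, K rep KO had a peak in 21.5% of the regions, against 39.2% over the genome, whereas K-KD had one in 36.7%, against 35.6%. In blocks of 20 Mb along chromosome 11, the share of regions with a K rep KO peak ran between 17.3% and 32.1%. Every block thus lay under the 39.2% of the genome, the one with KCNQ1OT1 and those far from it. The members were uneven along the chromosome. The block from 40 to 60 Mb, with the highest K rep KO share, held 25 of the 52 members among 1146 regions. Each other block held 2 to 14 members, the 14 among 2136 regions. The pair of K-KD plus K non-rep KO, whose rule leaves out every region with a K rep KO peak, took 2.01% of the chromosome 11 regions. The pair of knockouts, whose rule asks for a K rep KO peak, took 0.751%. Both shares are thus tied by rule to the K rep KO list.

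**Figure D4:**
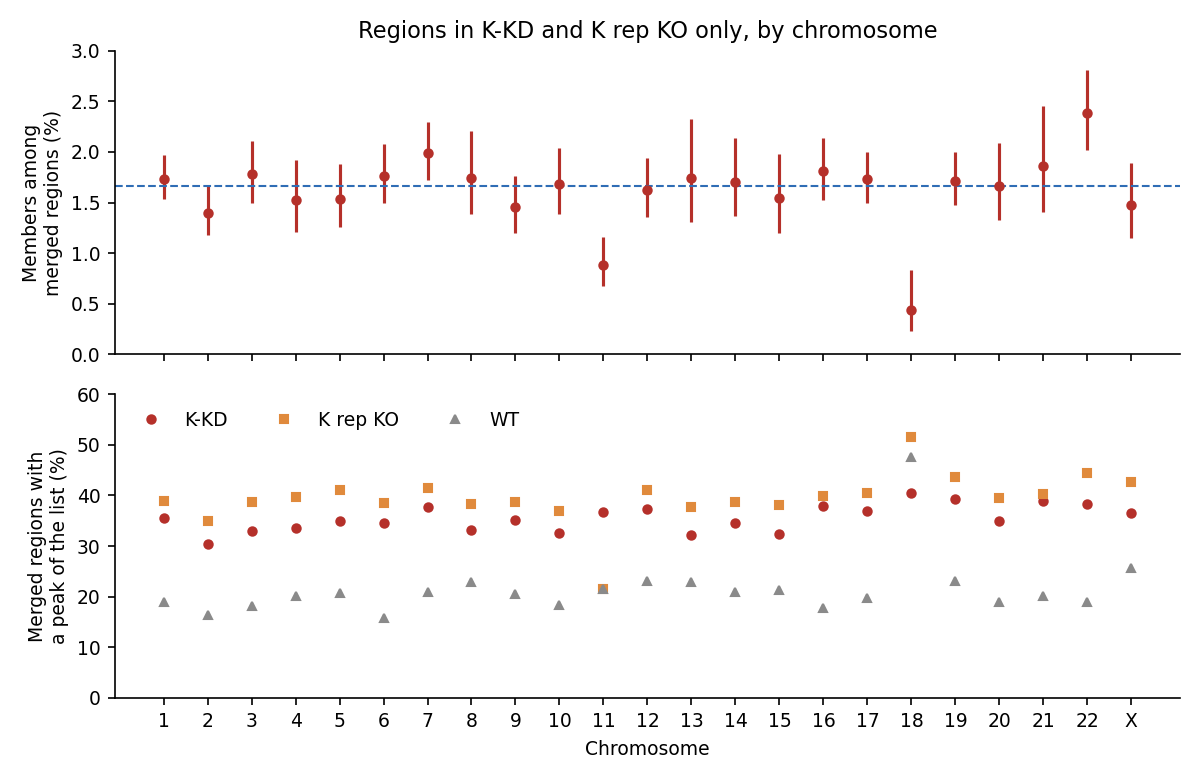
Top, members as a percentage of the merged regions of each chromosome, with Wilson 95% intervals as bars and the share over all chromosomes (1.66%) as a dashed line; bottom, the percentage of merged regions with a K-KD, K rep KO or WT peak. Chromosomes 11 (0.887%) and 18 (0.441%) lie lowest in the top panel. In the bottom panel K rep KO is low on chromosome 11 (21.5%), and on chromosome 18 WT (47.6%) and K rep KO (51.5%) are high.

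In the KCNQ1OT1 domain and its neighbours on 11p15.5, 1 of 174 regions was a member (0.575%, Wilson 95% interval 0.102% to 3.18%). It lay in OSBPL5, an oxysterol-binding protein gene, at chr11:3107260-3107907, with fold enrichments of 4.23 in K-KD and 3.92 in K rep KO. KCNQ1 itself, the potassium channel gene that hosts the antisense RNA, held 63 merged regions and no member, which allows a share of up to 5.75% (upper Wilson bound) and so includes the 1.66% of all regions. KCNQ1OT1 held 3 merged regions and no member, too few to set a useful bound. The low share of chromosome 11 in K rep KO covers this interval too.

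By 1 Mb windows, members stood in 1069 of the 2906 windows with a merged region, and 521 windows held 1 member. Both windows with most members were neighbours at the centromere of chromosome 7. The window from 59 to 60 Mb held 19 members among 286 regions (6.64%), and that from 58 to 59 Mb held 18 among 246 (7.32%). The other pairs held few regions there. K-KD plus K non-rep KO had 2 in each window, and both knockouts had 0 from 59 to 60 Mb and 1 from 58 to 59 Mb. Every list had many peaks there, in uneven numbers. The 59 to 60 Mb window had 240 peaks in K-KD, 237 in K rep KO, 145 in K non-rep KO, 156 in EV and 230 in WT. None of its members lay in a coding gene, and their median fold enrichments, 3.18 in K-KD and 2.81 in K rep KO, were below those of all members. Centromeric DNA consists of tandem repeats, where reads cannot be placed with certainty.

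The next windows were rich in genes. The window from 1 to 2 Mb of chromosome 16 held 15 members among 398 regions (3.77%), 13 of them in coding genes such as CACNA1H, a T-type calcium channel, and MAPK8IP3. The window from 1 to 2 Mb of chromosome 19 held 14 members among 384 regions (3.65%), with 11 in coding genes such as ABCA7, a lipid transporter, and EFNA2, an ephrin. The window from 1 to 2 Mb of chromosome 7 held 11 members, and there K-KD plus K non-rep KO had 10. Members seldom lay side by side, with 174 (7.27%) within 10 kb of another member.

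Counting gene bodies with 2 kb on both sides, 1367 of the 15596 protein-coding genes with a merged region held a member. Of these, 1204 held 1, 121 held 2 and 42 held 3 or more. MAD1L1, which encodes a spindle assembly checkpoint protein, held the most with 5, but the gene had 189 merged regions, so its share was 2.65%. Its members' fold enrichments ran from 3.85 to 6.42 in K-KD and from 2.72 to 4.75 in K rep KO. Genes with 4 members were NFAM1, MAPK8IP3 (a scaffold of JNK signalling and axonal transport), ALG12 (a mannosyltransferase of N-glycosylation), SEPTIN9 (a cytoskeletal GTPase), SORCS2 (a sortilin family receptor), TBC1D22A and LRRC37A2. LRRC37A2 is 1 of several near-identical genes, so its reads may come from another copy. SYT16, of the synaptotagmin family, had 3 members among 9 regions.

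Among the 2650 genes with at least 10 merged regions, MBTPS1, the protease that activates sterol regulatory proteins, had the highest share with 3 of 10 regions. The gene had 9 peaks in K-KD, 5 in K rep KO, 4 in K non-rep KO, 3 in EV and 1 in WT. One of its members, chr16:84078030-84078764, had a fold enrichment of 3.91 in K-KD and 7.58 in K rep KO and lay 19.5 kb from any peak of the other lists. NFAM1, an immune receptor gene with an activation motif, had 4 of 16 regions as members. It had 8 peaks in K-KD, 9 in K rep KO, 0 in K non-rep KO, 7 in EV and 3 in WT. The members of NFAM1 thus stood beside other EV and WT peaks in the same gene.

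NISCH, which encodes nischarin, had 3 of 12 regions as members, and the last of them was the region over the STAB1 start site. EVA1C had 3 of 13, with 8 peaks in K-KD, 7 in K rep KO, 1 in K non-rep KO, 7 in EV and 0 in WT. TANC2, a scaffold of the postsynaptic density, had 3 of 15. FOXP4 (a forkhead transcription factor), LLGL1 (a cell polarity protein), MTUS2, PER2 (a component of the circadian clock) and RBMS2 (an RNA-binding protein) had 2 of 10 each. All 10 genes had EV peaks in regions that were not members, from 3 to 8 a gene.

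**Figure D5:**
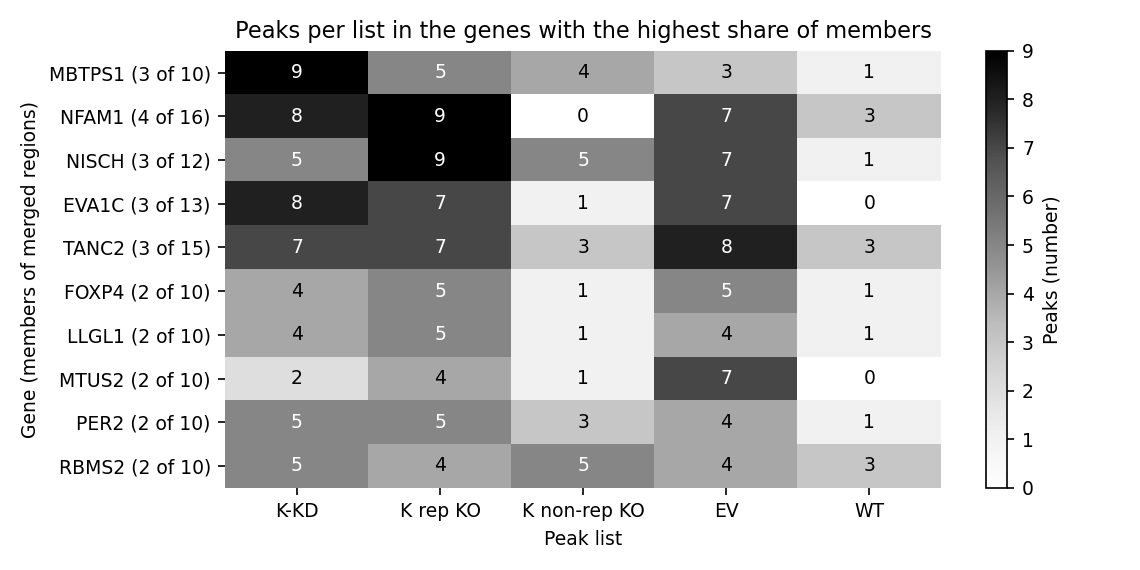
Number of peaks in each list (columns) within the 10 genes with the highest share of members (rows, gene body with 2 kb on both sides, members of merged regions in brackets), with darker cells for more peaks. EV peaks are present in all 10 genes, from 3 in MBTPS1 to 8 in TANC2, and NFAM1 has 0 peaks in K non-rep KO.

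The 20 members with the highest smaller fold enrichment of the 2 lists ran from 9.37 down to 5.75, and 11 of them lay in protein-coding genes. The first was chr10:85207110-85207459, in a long non-coding RNA gene, with 9.41 in K-KD and 9.37 in K rep KO and 21 and 20 fragments at the summits. The nearest peak of K non-rep KO, EV or WT lay 148 kb away. The next were in SLC12A8, a gene of the cation-chloride cotransporter family, with 8.56 in K-KD and 9.37 in K rep KO, and in ABCA10, an ABC transporter gene, with 8.53 in K-KD and 8.27 in K rep KO. These 3 regions were 350 to 390 bp wide, narrower than the median member, and their summits lay 43 to 79 bp apart.

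Other coding genes in this group were COL13A1 (a transmembrane collagen), SLC3A1 (a subunit of the cystine transporter), REV3L (the catalytic subunit of a translesion DNA polymerase), COX10 (a factor of heme A synthesis), IPP, TANC2, AFG1L, ZNF232 and the uncharacterised LOC124900995. A gap of over 10 kb separated 10 of the 20 from the lists that lacked them, and 16 had summits within 100 bp. Some of these strong members lay in repeated DNA. The region chr4:51342153-51342514, near the centromere of chromosome 4, had the deepest summits, with 37 fragments in K-KD and 54 in K rep KO. Another lay in DUX4L8, a pseudogene of the DUX4 repeat array, with 6.85 in K-KD and 6.12 in K rep KO.

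Of 14 gene lists, 12 had Wilson intervals that included the share of all protein-coding genes, 1466 members of 87679 regions or 1.67%. Genes of heterochromatin and DNA methylation held 8 members among 472 regions (1.69%). Among them were 3 in EHMT1, a histone H3 lysine 9 methyltransferase, 2 in KDM4B, a histone demethylase, and 1 each in DNMT3A and DNMT3B, which encode DNA methyltransferases. The DNMT3A member had fold enrichments of 3.66 in K-KD and 4.35 in K rep KO, and the DNMT3B member 4.71 in K-KD and 2.72 in K rep KO. Both DNA methyltransferase genes were thus represented by a single, modest region. The DNMT3B member had a −log10 q of 1.32 in K rep KO, close to the lowest value of that list, 1.30.

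Imprinted genes outside 11p15.5 held 5 members among 291 regions (1.72%). IGF2R, which is imprinted in the mouse and carries an imprinted intronic CG island in humans, held 2 of its 26 regions. The member chr6:160060396-160060896 had fold enrichments of 4.57 in K-KD and 7.30 in K rep KO. NNAT and BLCAP, where NNAT lies within an intron of BLCAP, shared a member with 4.64 in K-KD and 2.78 in K rep KO. L3MBTL1, a gene expressed from the paternal copy, had 4.31 in K-KD and 4.02 in K rep KO, and TRAPPC9 held the remaining member.

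The collagen genes held 10 members among 444 regions (2.25%, Wilson 95% interval 1.23% to 4.10%), with 3 in COL23A1, 2 each in COL6A2 and COL5A1 and 1 each in COL13A1, COL18A1 and COL26A1. Chromosome 19 zinc finger genes held 8 among 584 regions (1.37%), with 2 in ZNF77. Potassium channel genes held 5 among 458 (1.09%), among them regions in KCNT2, KCNK3, KCNN2 and KCNH2. Germline genes held 3 among 147 (2.04%), in SYCE1, TEX14 and TEX11. Olfactory receptor genes held 2 among 56 (3.57%), and the multicopy NBPF genes held 3 among 90 (3.33%). The clustered protocadherin genes held 1 among 63, a region that lies inside 20 nested gamma-cluster genes.

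The senescence and secretory list held 3 members among 55 regions (5.45%, Wilson 95% interval 1.87% to 14.9%), among them 2 in GLB1, which encodes lysosomal beta-galactosidase. The GLB1 members had fold enrichments of 4.28 and 3.38 in K-KD and 4.07 and 5.26 in K rep KO. The ribosomal protein genes held 4 members among 92 regions (4.35%, 1.70% to 10.7%), of which 2 lay in RPL3L and 1 each in RPL28 and RPL3. With 3 and 4 regions these are the only lists of the 14 whose intervals lay above the 1.67% of all coding genes. Their lower bounds were close to that share, and no allowance was made for the number of lists. No member fell among 65 regions of housekeeping genes or 67 regions of HOX genes, and these zeros allow shares of up to 5.58% and 5.42% (upper Wilson bounds). Among 152 merged regions over a microRNA hairpin, 2 were members, at MIR4751 and MIR4656.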

How the data were processed

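MeDIP-seq peak lists of HEK293T cells were analysed, 1 per condition for 5 conditions, from 10 samples (an immunoprecipitated and an input library each). The submitters' processing notes name Bowtie2, MACS2, deepTools and GRCh38. Their versions and settings, the caller's control and any pooling were not given in the sources used here. For each peak the authors deposited a fold enrichment ratio, a −log10 p and a −log10 q at its summit, a summit offset in bp (an other unit) and a score, which is 10 times the −log10 q. Such values were used within 1 list at a time. K-KD stands for the sample titled KD. There was 1 further list whose name matched no sample, and it was used in no step. Peak names inside both knockout lists carry other prefixes than the lists' names, so their assignment rests on the lists' names.

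Peaks outside chromosomes 1 to 22 and X, 3.56% to 5.83% of a list, were dropped. Coordinates are 1-based GRCh38. Regions were merged and set beside a RefSeq gene table (GRCh38.p14, no strand) and RefSeq start-site windows with Python 3.11.15, numpy 2.4.6, pandas 2.3.3 and scipy 1.17.1. Read depth is unknown, so the summit pileup was solved from fold = (pileup + 1)/(background + 1) and a Poisson upper tail (tolerance 0.001), for 99.88% or more of the peaks of each list. Shares carry Wilson 95% intervals and medians binomial order-statistic intervals. The merging, overlap and gap steps were tested on simulated peaks, whereas the pileup solution and the intervals were not.

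Named were the 10 genes with most members, the 10 with the highest share among genes with at least 10 merged regions, the 20 members with the highest smaller fold enrichment, the 5 windows of 1 Mb with most members, members at start sites (up to 20), members in 14 gene lists (a few of which are not reported here) and 3 regions on each side of the rule's edge. Members, lists and rules were chosen with earlier results of these data known. Alternatives were 2 stricter −log10 q thresholds, a reciprocal overlap of 50%, merging within 1000 bp, lists of the same length, and absence from EV and WT only.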

Additional observations from a re-analysis of the deposited data

How the results depend on the processing

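No paired analysis was possible because each condition had 1 peak list and the labels give no replicate numbers. The 2395 members became 1009 with −log10 q of 3 or more in K-KD and K rep KO and 1373 with lists of the same length. The median fold enrichment in K-KD, 3.99, moved beyond its interval to 4.22 with −log10 q of 2 or more, 4.62 with 3 or more and 4.71 with lists of the same length. In K rep KO the median of 4.07 moved to 4.34, 4.60 and 5.09 under the same settings and to 4.17 when a K non-rep KO peak was allowed. The summit distance of 127 bp moved to 104 bp with −log10 q of 3 or more, 101 bp with a reciprocal overlap of 50%, 173 bp with merging within 1000 bp and 113 bp with lists of the same length. The share in protein-coding genes moved to 59.8% with lists of the same length. The share of members isolated by over 10 kb moved to 19.3% with a reciprocal overlap of 50%, 24.2% with merging within 1000 bp, 28.0% with lists of the same length and 12.5% when a K non-rep KO peak was allowed. The stricter thresholds, the shorter lists and the wider merging hold fewer peaks or regions by construction, and the allowed K non-rep KO peaks lie in the region itself. Several settings also act directly on the measured value. Thresholds on −log10 q, and lists cut by it, drop weak peaks. A reciprocal overlap of 50% keeps peaks whose summits lie nearer each other. Merging within 1000 bp removes members with a close peak of another list.

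The other 20 of 38 values stayed within the interval of the reported value, or for the number of members within 1.5 times. Among them were 2 settings chosen after seeing the data, a share of 55.9% by region midpoint and 2334 members without chromosomes 11 and 18. With −log10 q of 3 or more asked of K-KD and K rep KO only, the members were fewer than the regions of K-KD plus K non-rep KO (1249) and of both knockouts (1848), since the threshold was not asked of K non-rep KO. The lists hold no depth at positions without a peak, which limits what a missing peak can show.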
